A study of Mus musculus with 2 samples.

Results

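The genes described here are 8 secreted or surface ligands of T cells: the chemokines Ccl5, Ccl1, Ccl3 and Ccl4, the tumour necrosis factor (TNF) family cytokines Lta, Ltb and Tnf, and the opioid precursor Penk. They are 8 of the 32285 genes counted in the series. They were chosen by name, from their levels in the 2 libraries, so that their values are given as a description without a test. The symbols were matched to the gene list of the counts, and all 8 were present.

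The series holds 1 library of WT and 1 library of KO regulatory T cells (Tregs), profiled by droplet single-cell RNA sequencing. They were sorted as CD4+ YFP+ 7AAD- cells from spleens of 7-day-old C57BL/6J mice. In both genotypes Cre recombinase and YFP are expressed from the Foxp3 gene, the locus of the transcription factor that defines Tregs, behind an internal ribosome entry site. KO mice carry Foxp3-Cre and floxed Zfp335 on both alleles, and WT mice carry Foxp3-Cre with unmodified Zfp335. Zfp335 is a zinc finger transcription factor, and the number of mice behind each library was not given in the sources used here. Captured RNA molecules were counted by unique molecular identifiers (UMIs) and assigned to droplets by barcodes. A level is given here in CPM, counts of a gene for each 1000000 UMIs that the same barcodes hold.

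The WT library had 64567991 UMIs in 14524 barcodes and the KO library 65480052 UMIs in 18134. A barcode had to show 300 or more genes and no more than 5% of UMIs from mitochondrial genes, and likely doublets were removed, which left 7827 WT barcodes (median 5055 UMIs) and 12776 KO barcodes (median 2716 UMIs). The mitochondrial limit was exceeded by 44.6% of WT and 24.1% of KO barcodes. The libraries shared 70 barcode sequences, 25 of them among kept barcodes. Clusters with CD3 and T cell receptor RNA, the T-lineage, took 7297 WT and 12046 KO barcodes, and Zfp335, the targeted gene, had 8.24 CPM in them in WT and 0.822 CPM in KO. Intervals are at the 95% level and cover counting error only. With 1 library a genotype there is no replicate, and differences between the libraries cannot be told apart from differences between genotypes.

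Chemokines are small secreted proteins that draw leukocytes along a gradient through G protein-coupled receptors. Ccl3, Ccl4 and Ccl5 are made in large amounts by activated T cells, natural killer (NK) cells and myeloid cells, whereas Ccl1 acts on Ccr8, a receptor found on Tregs. Lta, Ltb and Tnf are neighbouring genes of the major histocompatibility region. Lymphotoxin alpha forms a secreted homotrimer that binds TNF receptors and, together with membrane-bound lymphotoxin beta, a surface heterotrimer that binds the lymphotoxin beta receptor and shapes lymphoid organs. Penk encodes proenkephalin, from which the enkephalin peptides are cut, and is expressed by a portion of Tregs.

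In the GENCODE annotation of GRCm38, Ltb lies at chr17:35194439-35196320 on the plus strand, Tnf at chr17:35199381-35202007 and Lta at chr17:35203165-35205351, both on the minus strand. The 3 genes thus lie within 10913 bases, with 1157 bases between Tnf and Lta. Ccl5 (chr11:83525778-83530518, minus strand), Ccl3 (chr11:83647844-83649355, minus strand) and Ccl4 (chr11:83662584-83664683, plus strand) lie together on chromosome 11, with 13228 bases between Ccl3 and Ccl4. Ccl1 (chr11:82176657-82305690, minus strand) lies 1220087 bases from Ccl5, and its annotated length of 129034 bases comes from 1 long transcript. Penk lies on chromosome 4 (chr4:4133531-4138819, minus strand).

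The promoters of Lta, Tnf and Ccl1 are shown because Lta had the highest and Ccl1 the lowest KO to WT ratio of the 8 genes, and Tnf is the neighbour of Lta. Each run is the 250 bases before the RefSeq transcription start on GRCm38.p6, read on the strand of the gene (minus for all of them), from chr17:35205352-35205601 for Lta, chr17:35202008-35202257 for Tnf and chr11:82179813-82180062 for Ccl1. Capitals mark TATAAA in Lta and Tnf and the NF-kappa B motif in Ccl1.
Lta: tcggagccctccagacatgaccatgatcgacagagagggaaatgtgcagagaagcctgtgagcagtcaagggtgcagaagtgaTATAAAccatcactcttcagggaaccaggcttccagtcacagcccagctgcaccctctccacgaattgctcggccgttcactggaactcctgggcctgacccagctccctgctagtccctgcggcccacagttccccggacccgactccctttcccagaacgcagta
Tnf: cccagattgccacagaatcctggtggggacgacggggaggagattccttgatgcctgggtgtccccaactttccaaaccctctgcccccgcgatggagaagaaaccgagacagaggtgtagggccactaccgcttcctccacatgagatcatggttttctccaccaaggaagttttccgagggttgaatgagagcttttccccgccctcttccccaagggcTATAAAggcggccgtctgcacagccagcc
Ccl1: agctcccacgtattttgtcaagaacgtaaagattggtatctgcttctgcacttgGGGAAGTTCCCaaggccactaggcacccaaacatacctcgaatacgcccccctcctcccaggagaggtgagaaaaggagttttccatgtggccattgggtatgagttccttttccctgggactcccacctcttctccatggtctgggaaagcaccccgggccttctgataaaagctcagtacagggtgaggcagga

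The TATAAA match ended 24 bases before the start of Tnf and 162 bases before that of Lta. On either strand, TATAAA was found in 12.4% of the 32851 promoter windows of this length in the RefSeq table. The NF-kappa B motif, the binding motif of the Rel proteins, was matched in 7.25% of the windows, and among the 5 members in that table (Ccl1, Ccl3, Lta, Ltb and Tnf) it was matched in Ccl1, on both strands over a shared stretch, and in Ltb. The AP-1 motif TGANTCA, in 6.75% of windows, and the cyclic AMP response element TGACGTCA, in 1.55%, were matched in none of the 5. A match is a description of these letters and not of binding.

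Over all T-lineage barcodes, the 4 chemokines were lower and Lta was higher in the KO library, while Ltb, Tnf and Penk differed by less than 2-fold. Of the 8 members, 4 were lower by 2-fold or more and 1 was higher. The same limits were passed by 5.56% of the 12132 genes with 50 or more UMIs in the lower direction and by 2.48% in the higher direction. Since the members were chosen from these values, nothing is read from the comparison of these shares. Fewer cells that express a gene and less RNA per cell cannot be told apart from a summed level alone, and the shares of barcodes given further on describe the former.

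Ccl5, also known as RANTES, had 4187 UMIs in 1029 of 7297 WT barcodes and 643 UMIs in 206 of 12046 KO barcodes. The level in WT, 89.0 CPM (86.3 to 91.7), and that in KO, 13.2 CPM (12.2 to 14.3), gave a KO to WT ratio of 0.149 (0.137 to 0.161). Ccl1 had 761 UMIs in 61 WT barcodes and 37 UMIs in 22 KO barcodes, or 16.2 CPM (15.0 to 17.4) against 0.760 CPM (0.535 to 1.05), with a ratio of 0.0470 (0.0329 to 0.0654). This was the lowest ratio of the 8 genes.

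Ccl4 (MIP-1 beta) had 758 UMIs in 86 WT barcodes and 113 UMIs in 40 KO barcodes. The levels of 16.1 CPM (15.0 to 17.3) and 2.32 CPM (1.91 to 2.79) gave a ratio of 0.144 (0.117 to 0.176). Its neighbour Ccl3 (MIP-1 alpha) was rarer, with 181 UMIs in 70 WT barcodes and 81 UMIs in 43 KO barcodes, and its ratio of 0.433 (0.329 to 0.566) was the nearest to 1 among the chemokines.

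Lta was the only member that was higher in KO by more than 2-fold. It had 1205 UMIs in 880 WT barcodes and 4369 UMIs in 2590 KO barcodes, at 25.6 CPM (24.2 to 27.1) and 89.8 CPM (87.2 to 92.5), and the ratio was 3.51 (3.29 to 3.74). The adjacent genes differed less. Tnf, with 587 WT and 881 KO UMIs, had 12.5 CPM and 18.1 CPM and a ratio of 1.45 (1.31 to 1.61). Ltb, the most widely detected member with a UMI in 85.3% of WT and 84.8% of KO barcodes, had 823 CPM and 1015 CPM and a ratio of 1.23 (1.22 to 1.25).

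Penk had 3559 UMIs in 822 WT barcodes and 3131 UMIs in 1050 KO barcodes. Its levels of 75.6 CPM (73.2 to 78.2) and 64.4 CPM (62.1 to 66.6) gave a ratio of 0.851 (0.811 to 0.893), which joins opposite differences in separate states, as described further on. Shallow clusters led by globin, ribosomal, neutrophil granule or C1q genes were uneven between the libraries, and without them, in 6213 WT and 7150 KO barcodes, the ratios were 0.157 for Ccl5, 0.0505 for Ccl1, 0.384 for Ccl3, 0.160 for Ccl4, 3.55 for Lta, 1.24 for Ltb, 1.40 for Tnf and 0.868 for Penk.

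**Figure D1:**
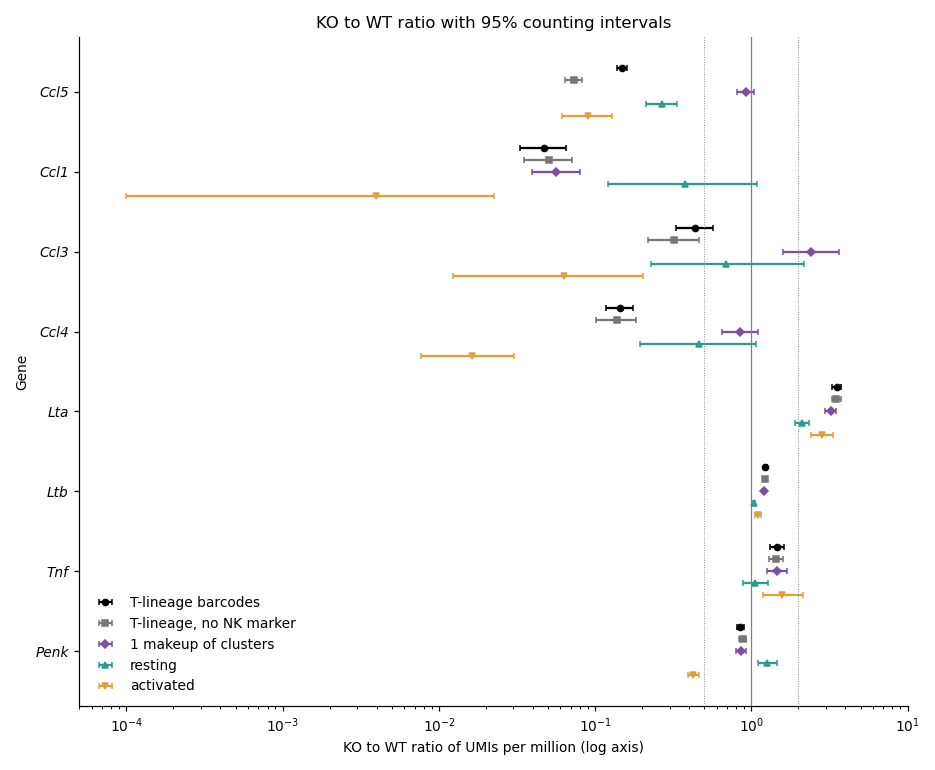
KO to WT ratio of CPM (log axis) for each gene with 95% counting intervals, over T-lineage barcodes, over those without a UMI of an NK marker, at a single makeup of clusters, and in the resting and activated states; dotted lines mark 2-fold. The chemokines lie left of 1 except Ccl3 at the single makeup (2.40), and all Lta ratios lie right of 1, from 2.11 to 3.51.

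The UMIs of Ccl1, Ccl3 and Ccl4 came from very few barcodes, unlike those of Lta, Ltb and Tnf. In the WT library a single barcode held 281 of the 761 Ccl1 UMIs (36.9%), and the 10 highest barcodes held 92.6%. A WT barcode likewise held 257 Ccl4 UMIs, and the 10 highest held 82.6% of that gene. For Ccl3 the 10 highest barcodes held 55.2% in WT and 59.3% in KO, where 1 barcode had 35 of the 81 UMIs. For Ccl5 the 10 highest barcodes held 16.6% in WT but 55.2% in KO, where 1 barcode held 17.7%. UMIs within a barcode are not independent, so the counting intervals of these genes, Ccl5 included, are too narrow.

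Barcodes with 10 or more UMIs were counted for the same reason. For Ccl1 there were 8 in WT and none in KO, for Ccl4 10 and 3, for Ccl3 5 and 1, and for Ccl5 100 and 12. For Lta the order was the opposite, with 3 such barcodes in WT and 19 in KO. Penk had 81 in WT and 67 in KO. Without the 10 highest barcodes of each library, the ratio was 0.207 for Ccl1, 0.220 for Ccl4, 0.394 for Ccl3, 0.0797 for Ccl5 and 3.63 for Lta. All 5 genes stayed past 2-fold in the same direction, while the ratios of Ccl1, Ccl4 and Ccl5 moved by over 1.5 times. For Ccl1 the removed barcodes were 10 of 61 in WT and 10 of 22 in KO.

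**Figure D2:**
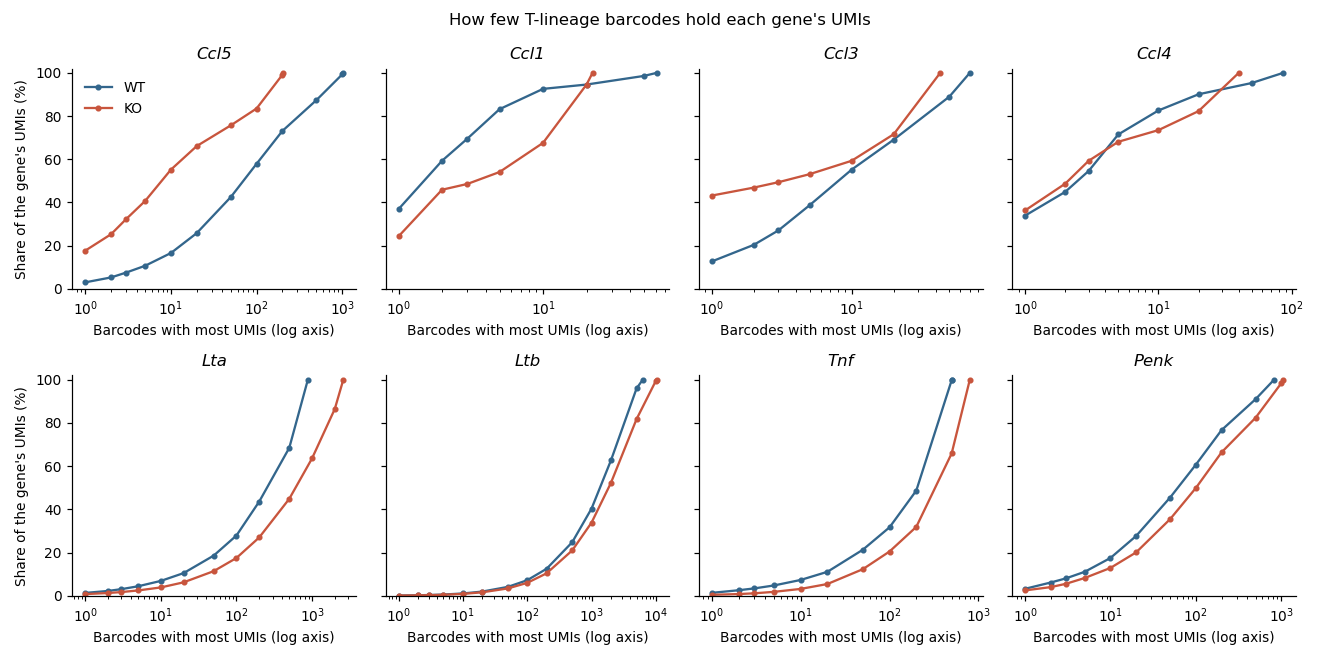
Cumulative share of each gene's T-lineage UMIs (%) held by the barcodes with the most UMIs (log axis), WT in blue and KO in red. The 10 highest WT barcodes hold 92.6% of Ccl1 UMIs but 6.89% of Lta UMIs.

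The levels were then compared by T cell state. Clusters were formed without the members, the related gene lists and the marker genes, and 5 of them were named from markers as Treg-like or dividing states: resting (2349 WT and 4719 KO barcodes, led by Ly6c1 and Dapl1), activated (580 and 1073, with Nefh), effector (1539 and 73, with Cxcr3 and Klrg1), cycling (566 and 700, led by histone genes) and mitotic (619 and 318, with Ccnb1 and Cxcr3). Among resting barcodes 5 members had 50 or more UMIs, of which Ccl5 was lower and Lta higher by 2-fold or more, where 2.17% and 0.808% of the 10392 genes were. The activated cluster was less clearly marked, with 5 of 9 activated markers raised at a limit of 1.5-fold. In resting barcodes 9 of 10 resting markers were raised, and in effector barcodes 11 of 11 effector markers. The activated cluster also had 4 of 7 markers of S phase raised, but 0 of 7 of G2/M. Its leading genes included Srm, Shmt1, Bcat1 and Asns. Its name is thus a label, and the part of S phase in its levels was not tested. Among activated barcodes 7 members had 50 or more UMIs. Ccl5, Ccl1, Ccl4 and Penk were lower and Lta was higher by 2-fold or more, where 3.05% and 1.39% of the 9357 genes were.

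Ccl5 in WT had its highest level in effector barcodes, 202 CPM (194 to 211), followed by mitotic (101 CPM), cycling (51.1 CPM), activated (40.2 CPM) and resting barcodes (21.9 CPM). No neighbours in this order had overlapping intervals. In KO the mitotic level was 13.1 CPM (9.11 to 18.4), the cycling level 7.19 CPM (5.40 to 9.38), the resting level 5.87 CPM (4.86 to 7.02) and the activated level 3.60 CPM (2.51 to 5.01), and each overlapped the next. The KO to WT ratio in these 4 states lay between 0.0896 (0.0611 to 0.128) in activated and 0.268 (0.213 to 0.335) in resting barcodes. Without the 10 highest barcodes of each library, it was 0.0832 in activated, 0.165 in resting, 0.108 in cycling and 0.0237 in mitotic barcodes. The barcodes left out in the mitotic cluster were 10 of 14 KO but 10 of 187 WT barcodes with Ccl5. The heat-shock-led cluster had 78.2 and 83.7 CPM, where 40 KO UMIs came from 3 barcodes.

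The effector cluster went the other way, with 280 Ccl5 UMIs in 16 of 73 KO barcodes, 596 CPM (528 to 670), and a ratio of 2.95 (2.60 to 3.34). Of these 280 UMIs, 262 (93.6%) were in 8 barcodes that also held a UMI of Ncr1, Klrb1c or Prf1, markers of NK and other cytotoxic cells. Foxp3 was detected in none of the 16 KO barcodes with Ccl5 (exact upper bound 20.6%) and in 116 of 361 such WT barcodes (32.1%). Ncr1 was detected in 6 of the 16 (37.5%, 15.2 to 64.6) and in 3 of the 361 (0.831%, 0.172 to 2.41).

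The KO effector barcodes with Ccl5 therefore differed from the WT ones in NK and Treg markers. All 5 NK markers were higher in KO effector barcodes, at a summed 983 CPM against 33.4 CPM in WT, and none was at 0 in either library. Without barcodes that held a UMI of Ncr1, Klrb1c or Prf1, effector barcodes had 168 CPM (160 to 176) of Ccl5 in WT against 41.4 CPM (24.5 to 65.4) in KO, with a ratio of 0.247 (0.146 to 0.391). Over the T-lineage as a whole the ratio without them was 0.0731 (0.0642 to 0.0829), lower than with them. The 5 markers summed to 26.7 CPM in WT and 37.0 CPM in KO over the T-lineage, with 3 of 5 higher in KO. Gzma alone was at 20.3 and 31.6 CPM there. In cycling barcodes the sums were 29.2 and 108 CPM, with 2 of 5 higher in KO and Ncr1 at 0 in KO. They were 63.1 and 89.3 CPM in mitotic barcodes (4 of 5 higher) and 6.91 and 4.63 CPM in activated barcodes (1 of 5 higher). The part of these markers in the levels of Ccl5 was not tested beyond leaving out barcodes with Ncr1, Klrb1c or Prf1.

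Ccl1 in WT had its highest levels in cycling barcodes, 57.0 CPM (52.3 to 62.0), and in activated barcodes, 25.9 CPM (22.1 to 30.2). The cycling level rested largely on 2 barcodes, which held 59.3% of all WT Ccl1 UMIs, so the order of these levels depends on few barcodes. The mitotic, effector and resting levels were 3.06, 2.00 and 0.929 CPM, and each overlapped the next. In the KO library the cycling level was 2.80 CPM (1.73 to 4.28), and the activated barcodes held a single Ccl1 UMI against 165 in WT, a ratio of 0.00397 with an upper bound of 0.0224. The KO library lacked barcodes with many Ccl1 UMIs, its highest count being 9. A Ccl1 UMI was held by 1 of 1073 activated and 6 of 700 cycling barcodes of KO, against 13 of 580 and 20 of 566 in WT. The WT barcodes were deeper, with medians of 9584 against 7377 UMIs in activated and 15024 against 9181 in cycling barcodes.

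Ccl4 had the highest WT level in activated barcodes, 63.5 CPM (57.4 to 70.0), where 1 barcode held 257 of 404 UMIs. The effector (13.3 CPM), mitotic (10.5 CPM) and cycling (9.97 CPM) levels overlapped, and the resting level was 1.30 CPM. In KO the activated level was 1.03 CPM (0.494 to 1.89), a ratio of 0.0162 (0.00772 to 0.0301), and the mitotic level was 7.73 CPM (4.72 to 11.9), whose ratio of 0.735 had an interval that held 1 (0.426 to 1.21). The activated ratio was 0.0440 without barcodes that held a UMI of Ncr1, Klrb1c or Prf1. The cycling ratio was 0.0801 (0.0287 to 0.181) with these barcodes and 0.507 without them.

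Ccl3 in WT was at 4.87 CPM in activated, 4.91 CPM in effector, 3.82 CPM in cycling and 5.59 CPM in mitotic barcodes, with overlapping intervals, and at 0.650 CPM in resting barcodes. The activated KO level of 0.309 CPM rested on 3 UMIs, with a ratio of 0.0634 (0.0124 to 0.203). For both genes the KO effector cluster stood apart, as for Ccl5. It held 56 Ccl4 UMIs and 37 Ccl3 UMIs, each in 3 barcodes, for ratios of 8.97 (6.47 to 12.3) and 16.0 (10.3 to 24.8).

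All of these effector UMIs of Ccl3 and Ccl4 in KO lay in barcodes with a UMI of an NK marker. Without such barcodes, the KO effector cluster held 0 UMIs of either gene, against 121 Ccl4 and 35 Ccl3 UMIs in WT. A single WT barcode held 58.7% of these Ccl4 UMIs, and 1.42% of the 1480 WT barcodes had Ccl4, against 65 barcodes in KO. A difference in Ccl3 or Ccl4 among these effector barcodes was not detectable at this depth.

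**Figure D3:**
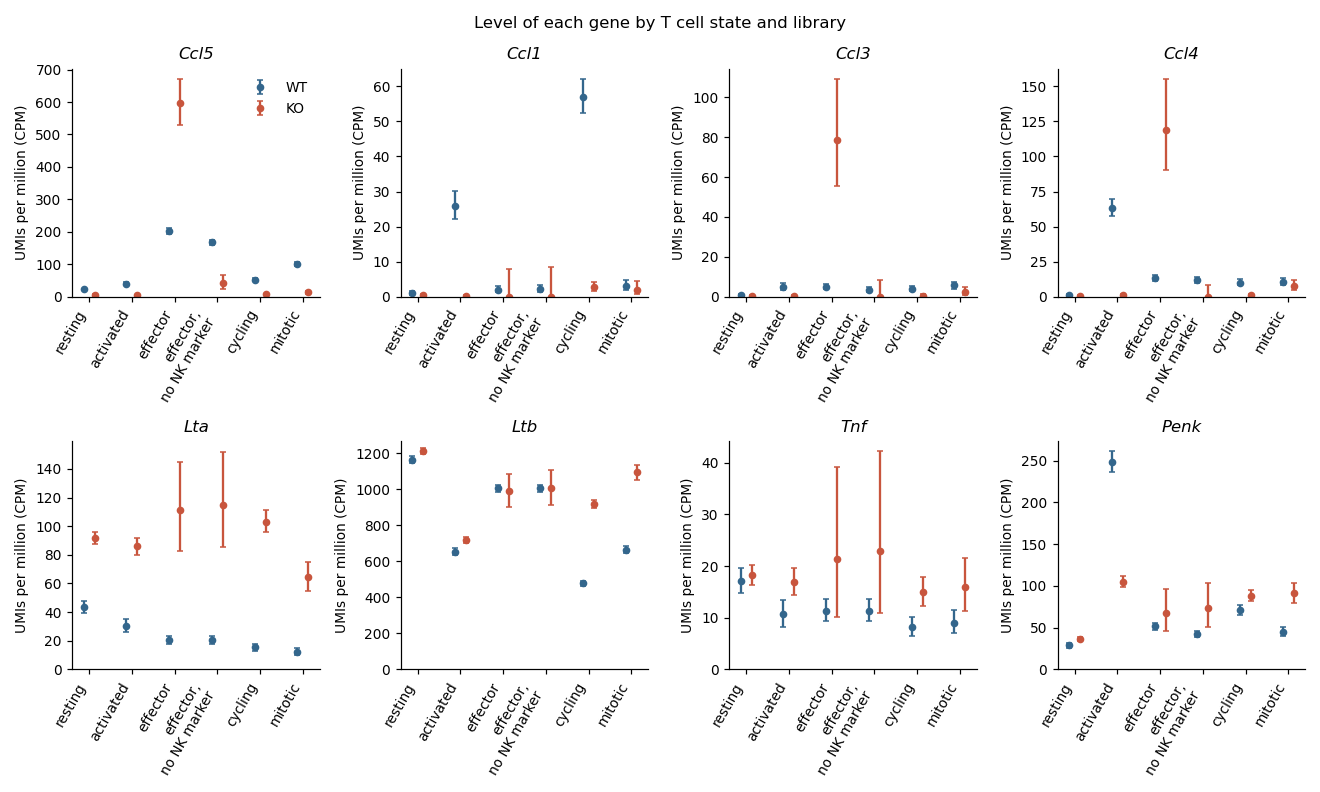
Level of each gene (CPM, linear axes that start at 0, a separate scale for each gene) by T cell state in WT (blue) and KO (red), with exact Poisson 95% intervals; the effector state is shown with all barcodes and without those that hold a UMI of Ncr1, Klrb1c or Prf1. Ccl5 in KO effector barcodes is at 596 CPM with all barcodes and at 41.4 CPM without, and Lta is higher in KO in every state shown.

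Lta was higher in KO in each of the 5 states. Its WT level was highest in resting barcodes, 43.5 CPM (39.6 to 47.6), followed by activated, 30.3 CPM (26.2 to 34.9), effector, 20.5 CPM (17.9 to 23.3), cycling, 15.4 CPM, and mitotic barcodes, 12.3 CPM (9.88 to 15.0). The last 3 overlapped from one to the next. In KO this order was not kept, with 111 CPM (82.7 to 145) in effector, an interval of 96.1 to 111 CPM in cycling, 91.6 CPM (87.4 to 95.8) in resting, 85.9 CPM (80.1 to 91.9) in activated and 64.2 CPM (54.8 to 74.7) in mitotic barcodes.

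In KO the effector interval overlapped those of cycling, resting and activated barcodes, and resting overlapped activated. The KO to WT ratio of Lta was 2.11 (1.90 to 2.34) in resting, 2.83 (2.42 to 3.33) in activated, 5.41 (3.92 to 7.34) in effector, 6.71 (5.61 to 8.07) in cycling and 5.24 (4.04 to 6.83) in mitotic barcodes. The intervals of the last 3 overlapped each other and lay above those of the first 2. A heat-shock-led T-lineage cluster (560 WT and 267 KO barcodes) had 52.8 and 71.1 CPM, and its ratio of 1.35 (0.851 to 2.11) had an interval that held 1. Leaving out NK-marker barcodes gave 5.59 (4.03 to 7.64) in effector barcodes, and leaving out the 10 highest barcodes of each library gave 2.43 there, where they were 10 of 26 KO but 10 of 172 WT barcodes with Lta, and 5.36 and 7.74 in mitotic and cycling barcodes.

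Tnf in WT was highest in resting barcodes among the named states, 17.1 CPM (14.7 to 19.7), and lay between 8.17 and 11.4 CPM in the other 4, whose intervals overlapped. The heat-shock-led cluster was higher, at 51.8 CPM (38.8 to 67.7) in WT and 43.9 CPM (27.2 to 67.1) in KO. In KO the named states lay between 14.9 CPM (cycling) and 21.3 CPM (effector), all overlapping. The ratio was 1.06 (0.889 to 1.28) in resting barcodes and 1.58 (1.18 to 2.13), 1.83 (1.35 to 2.47) and 1.75 (1.16 to 2.62) in activated, cycling and mitotic barcodes.

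Ltb in WT was highest in resting barcodes, 1166 CPM (1146 to 1187), then effector, 1006 CPM (988 to 1025), mitotic, 664 CPM (646 to 683), activated, 653 CPM (633 to 673), and cycling barcodes, 478 CPM (464 to 492), and only mitotic and activated overlapped. Resting barcodes of KO were close to this, at 1212 CPM (1197 to 1228) and a ratio of 1.04 (1.02 to 1.06). The ratio was 1.93 (1.85 to 2.00) in cycling and 1.65 (1.57 to 1.73) in mitotic barcodes, where KO had 920 and 1095 CPM, and 0.984 (0.895 to 1.08) in effector barcodes.

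Along the cluster of these 3 genes, the dividing states had the higher ratios for Ltb, and the ratio of Lta exceeded those of both neighbours in every named state. Lta and Tnf were not strongly tied within barcodes. Tnf was detected in 109 of 880 WT barcodes with Lta (12.4%) and in 6.11% of those without, and in 286 of 2590 KO barcodes with Lta and in 5.44% of those without. Barcodes with Lta were also deeper, with a median of 6536 against 4768 UMIs in WT and 4780 against 2284 in KO.

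**Figure D4:**
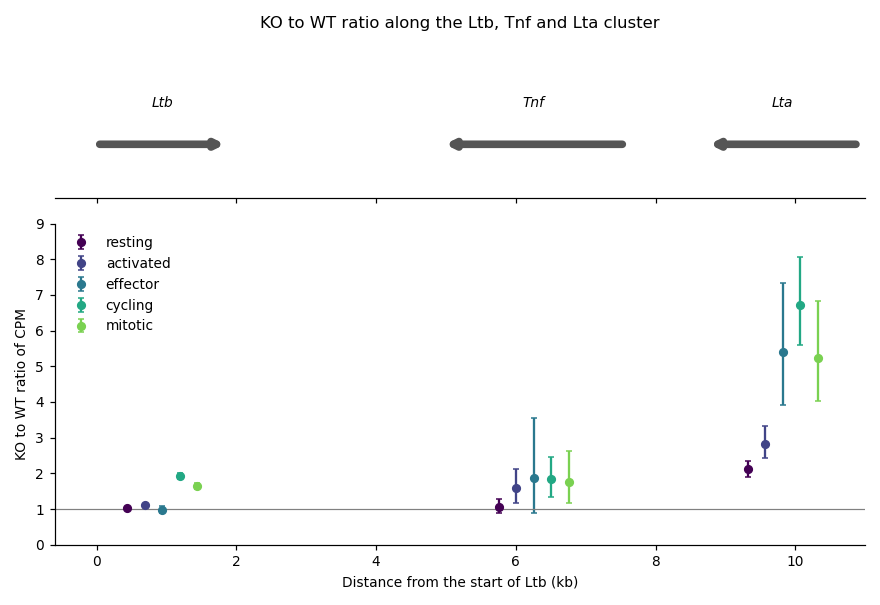
Top, positions and directions of Ltb, Tnf and Lta by distance from the start of Ltb (kb); bottom, KO to WT ratio of CPM of each gene in 5 T cell states with 95% counting intervals. Lta ratios range from 2.11 in resting to 6.71 in cycling barcodes, Tnf ratios from 1.06 to 1.87 and Ltb ratios from 0.984 to 1.93.

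Penk had its highest WT level in activated barcodes, 248 CPM (236 to 261), and the KO level there was 105 CPM (99.1 to 112), a ratio of 0.425 (0.392 to 0.460). These came from 152 of 580 WT and 175 of 1073 KO barcodes, and the UMIs per barcode with Penk were 10.4 in WT and 5.85 in KO. Activated barcodes thus differed in both the share with Penk and the count within them. Without the 10 highest barcodes of each library, the ratio was 0.488.

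Elsewhere Penk was not lower in KO. The resting levels were 28.7 and 36.2 CPM (ratio 1.26, 1.10 to 1.45), the cycling levels 71.0 and 88.0 CPM (1.24, 1.11 to 1.38) and the mitotic levels 45.3 and 91.3 CPM (2.02, 1.70 to 2.39). The mitotic ratio was 1.17 without the 10 highest barcodes of each library, which were 10 of 52 KO and 10 of 107 WT barcodes with Penk and held 69.5% of the KO UMIs there. Effector barcodes, with 51.6 and 68.1 CPM, had an interval that held 1 (0.894 to 1.89), and without NK-marker barcodes the ratio was 1.74 (1.18 to 2.50).

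In barcodes gated on single genes instead of clusters, Ccl5 had a ratio of 0.720 (0.601 to 0.857) in Cxcr3-positive Klrg1-negative barcodes, 0.131 (0.0724 to 0.221) in those with Tnfrsf9 and Nefh, 0.394 (0.316 to 0.489) in those with Ly6c1 and 2.05 (1.70 to 2.46) in the 705 WT and 34 KO barcodes with Klrg1, where 1 barcode held 88.4% of the KO UMIs. Lta had ratios of 3.87, 4.41, 3.07 and 6.01 in the same 4 gates, and Penk had 0.690 (0.624 to 0.762) with Tnfrsf9 and Nefh and 1.76 (1.47 to 2.10) with Cxcr3 and without Klrg1.

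Because the effector cluster held 1539 WT but 73 KO barcodes, the levels were also averaged over clusters with the same weights in both libraries, the share of UMIs of each T-lineage cluster. The ratio was then 0.0561 (0.0396 to 0.0795) for Ccl1, 3.21 (2.94 to 3.50) for Lta, 1.21 (1.18 to 1.23) for Ltb, 1.46 (1.26 to 1.69) for Tnf and 0.861 (0.803 to 0.922) for Penk, all close to the unweighted values. The other 3 chemokines were not. Ccl5 came to 0.918 (0.811 to 1.04), Ccl4 to 0.849 (0.652 to 1.10) and Ccl3 to 2.40 (1.59 to 3.63).

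These 3 averages gave a large weight to the 73 KO effector barcodes. Without barcodes that held a UMI of Ncr1, Klrb1c or Prf1, the same average was 0.124 for Ccl5, 0.141 for Ccl4 and 0.206 for Ccl3. With the weights of the KO library the values were 0.154, 0.111 and 0.358, and with those of the WT library 1.68, 1.84 and 4.95. At the finer cluster resolution of 1.0 the weighted Lta ratio was 2.40 and the Ccl5 ratio 1.27.

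The share of barcodes with a UMI was compared after each barcode had been thinned to 1000 UMIs, since WT barcodes were deeper. This left out 1054 of 7297 WT and 1062 of 12046 KO T-lineage barcodes with fewer UMIs. Erythroid-like barcodes, which should lack T cell ligands, were taken as the background. At this depth they were 237 in WT and 473 in KO. Their medians before thinning were 5436 and 2582 UMIs, against 5709 and 3004 for T-lineage barcodes.

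Ccl5 was found in 4.87% (4.35 to 5.43) of thinned WT and 0.610% (0.473 to 0.774) of thinned KO T-lineage barcodes, against 14.1% and 1.71% without thinning, and in 0.422% (0.0107 to 2.33) and 0.211% (0.00535 to 1.17) of erythroid-like barcodes. The WT share lay above its background, whereas the KO share overlapped it. The KO shares of Ccl1 (0.0546%), Ccl3 (0.127%) and Ccl4 (0.0910%) also overlapped the background, whose upper bounds were between 0.777% and 1.17%. So did the WT shares of Ccl1 (0.256%), Ccl3 (0.224%) and Ccl4 (0.432%), where the upper bounds were 1.54%, 1.54% and 3.01%. With 0 erythroid-like barcodes positive, the upper bound was still 1.54% in WT and 0.777% in KO. None of these shares, nor the KO share of Ccl5, could therefore have cleared the background. For these 3 genes the shares at this depth are read neither as expression nor as its absence, and the description rests on the barcodes with many UMIs.

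Lta was found in 2.88% (2.48 to 3.33) of WT and 7.92% (7.42 to 8.44) of KO T-lineage barcodes after thinning, a ratio of shares of 2.75 (2.35 to 3.22). Without thinning the shares were 12.1% and 21.5%. Among erythroid-like barcodes, 0.422% (0.0107 to 2.33) of WT and 4.23% (2.60 to 6.45) of KO had Lta, below the T-lineage share of the same library in both. For each 100 Ltb UMIs, erythroid-like barcodes of KO had 8.55 Lta UMIs (6.33 to 11.3) and T-lineage barcodes 8.85 (8.57 to 9.12), and in WT these values were 2.21 (0.802 to 4.86) and 3.11 (2.93 to 3.29). For Ccl5 they were 4.78 (2.51 to 8.31) and 10.8 (10.5 to 11.2) in WT, and 0.645 and 1.30 with overlapping intervals in KO. For Penk they were 3.71 (2.33 to 5.62) and 6.34 (6.11 to 6.57) in KO, and 6.25 and 9.19 with overlapping intervals in WT. The source of these UMIs in erythroid-like barcodes was not tested.

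Tnf was found in 1.49% (1.20 to 1.82) of WT and 1.85% (1.60 to 2.12) of KO T-lineage barcodes after thinning, and both overlapped the background interval of their library. Penk was found in 3.99% (3.52 to 4.50) and 4.12% (3.75 to 4.50), overlapping the background of 1.27% (0.262 to 3.65) in WT and 2.33% (1.17 to 4.12) in KO. In activated barcodes alone the Penk shares of 11.9% (9.38 to 14.8) in WT and 6.34% (4.96 to 7.97) in KO lay above the background of the same library. Ltb was found in 55.7% (54.5 to 57.0) and 61.8% (60.9 to 62.7) of T-lineage barcodes, against 13.9% and 33.0% of erythroid-like ones.

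**Figure D5:**
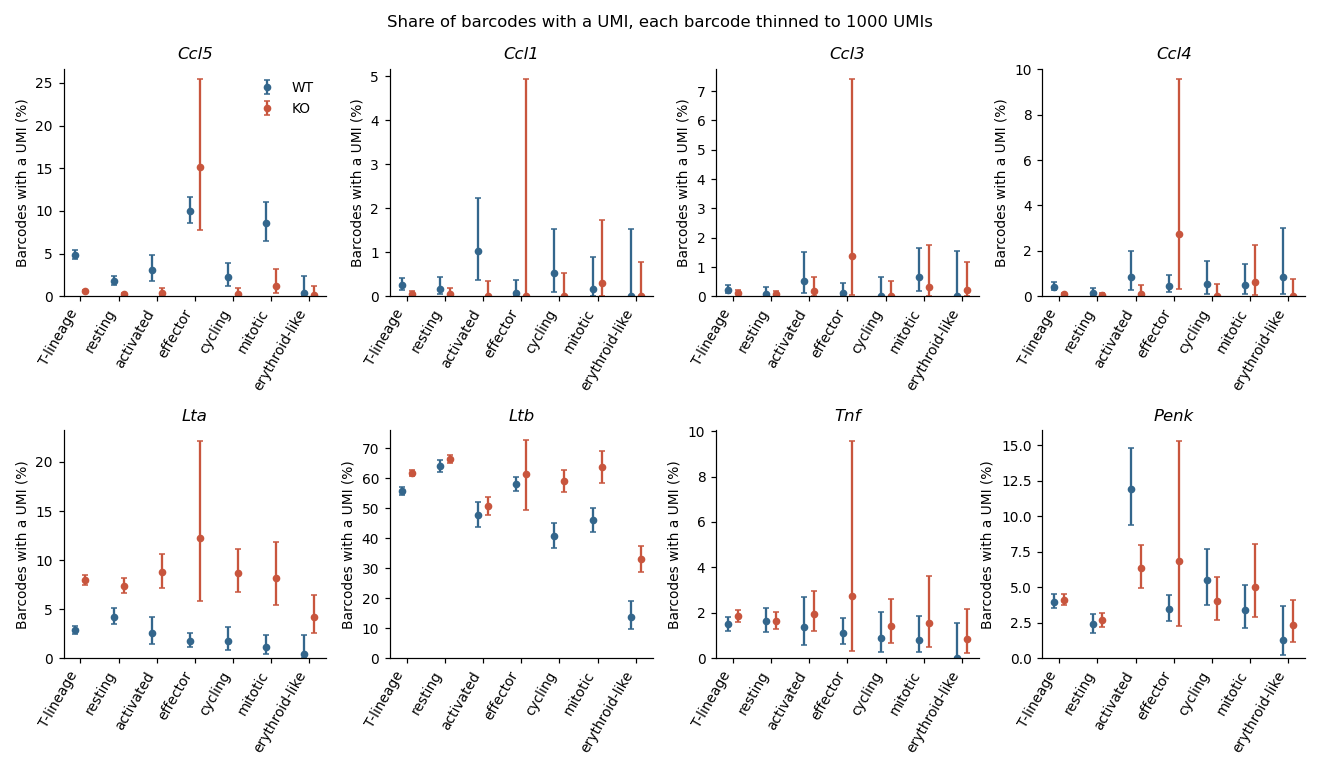
Share of barcodes with a UMI (%) after each was thinned to 1000 UMIs, by T cell state and in erythroid-like barcodes, with exact binomial 95% intervals, WT in blue and KO in red and a separate scale for each gene. The Lta share is 2.88% in WT and 7.92% in KO T-lineage barcodes, and 0.422% and 4.23% in erythroid-like barcodes.

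Ccl3 and Ccl4 were also found outside the T-lineage. The myeloid progenitor-like cluster (104 WT and 106 KO barcodes, led by Mcpt8 and Elane) had 314 WT and 231 KO Ccl3 UMIs, 169 CPM and 120 CPM, in 43 and 25 barcodes. Ccl4 there had 192 and 153 UMIs, in 23 and 17 barcodes. The ratios of 0.712 (0.598 to 0.847) and 0.771 (0.620 to 0.959) were nearer to 1 than those of T-lineage barcodes. The 7 mast cell and basophil markers in this cluster summed to 1639 CPM in WT and 237 CPM in KO, with 0 of 7 higher in KO and 3 (Mcpt4, Cma1 and Tpsb2) at 0 there, and their part in these ratios was not tested. The summed level of the 4 myeloid progenitor markers in T-lineage barcodes was 31.8 CPM in WT and 90.2 CPM in KO. In KO, 3223 of these 4388 marker UMIs lay in a shallow cluster led by globin and granule genes. The markers summed to 36.6 and 27.2 CPM in resting, 21.1 and 19.7 CPM in activated and 16.2 and 15.2 CPM in cycling barcodes. They summed to 18.1 and 19.7 CPM in mitotic and 25.7 and 38.3 CPM in effector barcodes. Their part in the levels of Ccl3 and Ccl4 was not tested. Over all kept barcodes, the myeloid ones included, the ratio was 0.617 (0.535 to 0.710) for Ccl3 and 0.277 (0.241 to 0.317) for Ccl4.

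Where Ccl3 was found in T-lineage barcodes, Ccl4 was often found with it, in 20 of 70 WT barcodes (28.6%) and in 5 of 43 KO barcodes (11.6%), against 0.913% and 0.292% of barcodes without Ccl3. Ccl1 was accompanied by Penk in 14 of 61 WT barcodes (23.0%, against 11.2% of those without Ccl1) and by Ccl4 in 7 of 61, against 1.09% of those without. The WT barcodes with Ccl3 had a median of 10176 UMIs and those without 4976, so that detection of any gene was more likely in them.

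The lists of related genes gave the setting of the members. For list genes that are not members, how few barcodes held their UMIs was not examined. Barcodes with an NK marker were not left out for them either. The chemokine list holds 4 members and the TNF ligand list 3, so that their counts and medians include the values by which the members were chosen, and nothing is read from them against all genes. Of the 40 chemokine ligands, 11 had 50 or more UMIs in T-lineage barcodes, of which 6 were lower and 2 higher in KO by 2-fold or more. Besides the members, Xcl1, a ligand made by activated T and NK cells, was at 16.2 CPM in WT and 3.78 CPM in KO (ratio 0.233, 0.197 to 0.274), and Cxcl10, an interferon-induced ligand of Cxcr3, was at 10.4 CPM and 25.7 CPM (2.46, 2.21 to 2.74). The thymic chemokine gene Ccl25 had 640 UMIs in WT and 586 in KO (0.886, 0.790 to 0.992). The median log2 ratio of the 11 was -1.03, against -0.07 over all genes tested.

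Of the 17 TNF superfamily ligands 11 were measured, of which 3 were lower and 2 higher, with a median of -0.83. Tnfsf8, which encodes the CD30 ligand, was the other one above 2-fold, at 10.8 CPM in WT and 32.8 CPM in KO (3.03, 2.74 to 3.36). Tnfsf14 (LIGHT), which shares receptors with the lymphotoxins, was lower, at 5.89 and 1.99 CPM (0.339, 0.266 to 0.428), and Fasl was at 3.87 and 2.01 CPM (0.521, 0.403 to 0.669).

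Of 11 receptors of the members 6 were measured. Ccr3, a receptor for Ccl5, had 98 UMIs in WT and 1 in KO (0.00987, 2.47e-04 to 0.0563). Ccr8, the Ccl1 receptor, was at 2.27 and 1.97 CPM with an interval that held 1 (0.652 to 1.15). Tnfrsf1b, the TNF receptor found on Tregs, was at 24.8 and 15.5 CPM (0.623, 0.568 to 0.683) and Tnfrsf1a at 8.88 and 13.7 CPM (1.54, 1.36 to 1.75). The median log2 ratio was -0.44.

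The 18 NF-kappa B genes, the pathway that induces several of the members, had a median log2 ratio of 0.18, and only Bcl3, an atypical I kappa B protein, passed 2-fold, at 24.1 and 48.5 CPM (2.01, 1.87 to 2.16). Nfkbia, the I kappa B alpha inhibitor, was at 458 and 823 CPM (1.80, 1.77 to 1.83) and Traf1 at 165 and 117 CPM (0.710, 0.686 to 0.735). Of 18 other T cell cytokines 10 were measured, of which 4 were lower and 1 higher by 2-fold or more, with a median of -0.47. Over all genes tested, 5.56% were lower and 2.48% higher by this limit, and the shares are given as a description. Il10, an anti-inflammatory cytokine of effector Tregs, had 175 UMIs in WT and 9 in KO (0.0497, 0.0224 to 0.0966), Ifng had 9.07 and 3.58 CPM (0.394, 0.329 to 0.471), and Il13 had 12 and 124 UMIs (10.0, 5.52 to 19.9).

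Among the enzymes that process proenkephalin and the other opioid precursors, 3 of 7 genes were measured, with a median of -0.11. Cpe, the carboxypeptidase that trims enkephalins, had 67 UMIs in WT and 183 in KO (2.64, 1.99 to 3.55), and Pomc, another opioid precursor, had 191 and 140 (0.709, 0.566 to 0.886). In resting barcodes the medians of the lists lay between -0.50 and 0.26, and in activated barcodes the chemokine ligands stood at -3.12 and the TNF ligands at -0.86.

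The genes with the most similar pattern to each member were sought over the 17 sums of a library and a T-lineage cluster with 50 or more barcodes, among 10165 genes, by the Pearson r of log2(CPM + 1). These sums share 2 libraries and differ in depth, so the values only describe. For Lta the likest gene was Tnfsf8 (r = 0.95), followed by Socs1 (0.90), an inhibitor of cytokine signalling, and Gadd45g (0.89). Ccl3 had its neighbour Ccl4 as the second (0.84, after Nebl at 0.86). Ccl5 was followed most closely by Hk1 (0.94), a hexokinase gene, then by Mfsd14b (0.91) and by Il10ra (0.89), a chain of the interleukin-10 receptor.

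The other members had Evl (0.92), an actin regulator, for Ltb, D730003I15Rik (0.92) for Tnf, Chst2 (0.87) for Ccl4 and Hcfc1 (0.81) for Ccl1. For Penk these were Nip7 (0.88), Utp11 (0.88) and Wdr12 (0.87), which are all genes of ribosome biogenesis.

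The limits that define the barcodes were examined on either side. Among barcodes with CD3 or T cell receptor UMIs, those with over 4% and up to 5% mitochondrial UMIs (666 WT and 818 KO) had a Lta ratio of 2.54 (1.97 to 3.29), and those just outside, with over 5% and up to 6% (517 and 473), one of 1.90 (1.29 to 2.83). Ccl5 had 0.684 (0.485 to 0.960) just inside and 0.0589 (0.0187 to 0.142) just outside. The limit of 300 genes had little to act on, since 2 WT and 8 KO barcodes lay less than 50 genes above it and 0 WT and 3 KO barcodes less than 50 genes below it.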

How the data were processed

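Splenic CD4+ YFP+ cells were profiled with 10x V3 chemistry in 1 WT and 1 KO library, so no test was possible and values are descriptions. Per the labels and the methods of the study, the authors aligned reads with Cell Ranger 5.0.1 to mm10 and deposited UMI counts per gene and barcode. Computed here with Python 3.11.15, scanpy 1.11.5 and scipy 1.17.1 were all further steps. Barcodes under 300 genes or over 5% mitochondrial UMIs were dropped. A simulated-doublet score called 5% of WT and 8% of KO deposited barcodes (726 and 1451), of which 226 and 991 had passed these filters and were removed. The methods of the study state these percentages for the opposite libraries, while the doublet numbers given there correspond to the ones used here. Counts were scaled to 10000 per barcode, and 2000 variable genes, without 253 genes that included the members, related lists and markers, gave 30 principal components and Leiden clusters (resolution 0.5). T-lineage clusters had CD3 and T cell receptor levels (mean CPM over 6 genes) of at least 50% of the average over clusters. UMIs were summed per library and cluster, and ratios have exact conditional binomial, levels exact Poisson and shares Clopper-Pearson intervals. The scripts recovered known folds in independent Poisson counts simulated from these sums. Such counts do not place the UMIs of a gene in few barcodes, so this checks the arithmetic and not the intervals of Ccl1, Ccl3, Ccl4 or Ccl5. Alternatives were TMM scaling (edgeR 4.0.16), other filters and thinning depths, a resolution of 1.0 and leaving out the 10 highest barcodes of each gene. The alternatives without barcodes that held a UMI of Ncr1, Klrb1c or Prf1 were chosen after seeing the data. The members and the gene lists were chosen with earlier results of these data known. The named genes were the 8 members, list genes with 50 or more UMIs, the 3 genes most alike each member and Zfp335. A gene of the receptor list is not reported here.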

Additional observations from a re-analysis of the deposited data

Results flagged for a closer look

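The KO to WT ratio of Ccl5 was 2.95 in effector and 0.0896 in activated barcodes, on opposite sides of 1, and the difference was not tested. That of Ccl4 was 8.97 in effector and 0.0162 in activated barcodes, also untested. Without barcodes that held a UMI of Ncr1, Klrb1c or Prf1, the effector ratio was 0.247 for Ccl5, and Ccl4 had 0 UMIs in KO effector barcodes. Penk had a ratio of 2.02 in mitotic and 0.425 in activated barcodes, and this difference was not tested. Without the 10 highest barcodes of each library, the ratios of Penk were 1.17 and 0.488, where the removed barcodes were 10 of 52 KO but 10 of 107 WT mitotic barcodes with Penk.

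Barcodes with over 5% mitochondrial UMIs, which were left out of the levels by state, also held the members. Among those with CD3 or T cell receptor UMIs (5892 WT and 3881 KO), the ratio was 0.114 for Ccl5, 0.673 for Ccl1, 0.433 for Ccl3, 0.295 for Ccl4, 2.60 for Lta, 1.36 for Ltb, 1.18 for Tnf and 1.22 for Penk. All but Penk lay on the same side of 1 as in the kept T-lineage barcodes. The latter were taken by cluster and not by UMIs, so the sets are not chosen alike. Taken by UMIs, kept barcodes had 0.620 for Ccl3 and 0.277 for Ccl4.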

How the results depend on the processing

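Of 315 values under an alternative, 227 stayed within their limits (the counting interval of a ratio, 1.5 times for a count), 79 moved further and 9 changed direction. For ratios over T-lineage barcodes, taking T barcodes by CD3 or T cell receptor UMIs gave 0.620 for Ccl3, 0.277 for Ccl4 and 1.25 for Ltb. With T barcodes taken in this way, keeping doublets too gave 0.599, 0.265 and 1.25, and dropping the mitochondrial filter gave 0.638, 0.285 and 1.26, with 0.0693 for Ccl1 and 0.906 for Penk, so that for Ccl3, Ccl4 and Ltb most of the move came with the choice of T barcodes. TMM scaling gave 1.30 for Ltb and 0.899 for Penk. The mean of CPM per barcode gave 0.0863 for Ccl1, 2.75 for Lta, 1.15 for Ltb, 0.929 for Penk and 1.20 for Tnf. Thinned sums gave 0.0793 for Ccl1, 0.568 for Ccl3, 0.0812 for Ccl4, 2.96 for Lta, 1.10 for Ltb and 1.18 for Tnf. Leaving out NK-marker barcodes gave 0.321 for Ccl3 and 0.0731 for Ccl5, and leaving out the 10 highest barcodes gave 0.207 for Ccl1, 0.220 for Ccl4, 0.0797 for Ccl5 and 0.899 for Penk. Ccl3 fell short of 2-fold, leaving 3 lower members, in thinned sums and wherever T barcodes were taken by UMIs. Taking T barcodes by any such UMI does not leave out other lineages. Myeloid progenitor-like barcodes held 1225 WT and 1326 KO UMIs of the CD3 and T cell receptor genes. Over all kept barcodes, the ratios were 0.617 for Ccl3 and 0.277 for Ccl4. The part of myeloid barcodes in these by-UMI values was not tested. The shares of all genes past 2-fold were 17.1% lower and 10.7% higher with a minimum of 1 UMI, and 3.44% and 1.64% with 200, since the genes included differ. With 200 UMIs, 1 chemokine ligand was higher, 1 receptor was lower, and 2 other cytokines were lower and 0 higher.

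Ratios of shares without thinning were 1.78 for Lta, 0.995 for Ltb and 0.967 for Tnf, both below 1 in place of above it, and 0.774 for Penk, and at 2000 UMIs 0.468 for Ccl4 and 1.07 for Ltb. At a single makeup of clusters, resolution 1.0 gave 0.110 for Ccl1, 1.27 for Ccl5, 2.40 for Lta and 1.04 for Ltb. KO weights gave 0.358 for Ccl3 (reversed), 0.111 for Ccl4, 0.154 for Ccl5, 2.87 for Lta and 0.775 for Penk, and WT weights 4.95, 1.84, 1.68, 3.62 and 0.958. Without NK-marker barcodes Ccl3 was 0.206 (reversed), Ccl4 0.141 and Ccl5 0.124. In effector barcodes Ccl5 reversed to 0.247 and Ccl3 and Ccl4 to 0 without NK-marker barcodes. Without the 10 highest they came to 0.111, 0 and 0, which their few KO barcodes (16 with Ccl5, 3 with Ccl3 and 3 with Ccl4) fixed in advance. The causes of these shifts were not tested beyond what each alternative leaves out. No paired analysis was possible because each genotype has 1 library. Depth limits shares near the background of erythroid-like barcodes and genes held by few barcodes.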
